A study of Rattus norvegicus with 4 samples.

Results

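The DEAD and DEAH box RNA helicases were followed in the adrenal medulla of rats, in animals immobilized for 2 h and in unstressed animals. Members were the genes whose symbol in the platform annotation begins with Ddx or Dhx and a number, taken only from probe sets that name 1 gene, with the probe set of highest mean level standing for each gene. The rule found 47 genes of the 14217 named on the array, 32 with a Ddx symbol and 15 with a Dhx symbol. All 47 lay above the level under which probe sets were not tested. The choice of genes used symbols and mean level over all 4 arrays, not the difference between the groups. The adrenal medulla lies inside the adrenal gland and holds the chromaffin cells, the source of circulating adrenaline, and immobilization is a standard form of stress in rodents. Total RNA was measured on 4 single-colour oligonucleotide arrays, 2 for immobilized and 2 for unstressed rats, called immobilized 1 and 2 and unstressed 1 and 2 below. Strain, sex, age, the delay before tissue was taken and whether a sample held 1 animal or a pool are not given in the sources used here, so p-values here reflect only how these arrays vary within a group, and that variation may be technical.

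RNA helicases of this kind bind ATP and RNA and either pull short RNA duplexes apart or displace proteins from RNA. They are named after the amino acids of a conserved motif that takes part in ATP hydrolysis, written DEAD in one branch and DEAH in the other. Members act at nearly every step in the life of an RNA: splicing, the maturation of ribosomal RNA in the nucleolus, export of mRNA from the nucleus, translation, decay, and the recognition of viral RNA. The symbol rule leaves out helicases of the same fold that carry other names, such as the translation factor Eif4a1, and these were counted separately.

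The labelled tissue was checked against its markers first. Chromaffin cell genes were bright on every array: Th, the rate-limiting enzyme of catecholamine synthesis, read 68379 and 44651 in immobilized rats and 54049 and 55633 in unstressed rats. Genes of the adrenal cortex, the steroid-making outer layer, were bright as well, with summed readings of its 8 measured markers of 401349 and 289714 in immobilized rats and 329785 and 372706 in unstressed rats. Of these 8 markers 2 rose, 0 fell and 0 lay on all arrays within the range of the Bacillus probe sets, a background control, and at an unadjusted p under 0.05 in limma 1 lay lower. The cortical part of the samples was thus measurable, and its share in the helicase readings was not tested. Summed readings of the chromaffin markers were 370606 and 262027 in immobilized rats and 297864 and 273616 in unstressed rats, 1 of 8 rising and 0 falling. The highest reading on immobilized 2 was 52133, against 70582 to 75600 on the other arrays. Its 99th percentile, 30549, lay within their range of 30002 to 36447. The Actb and Gapdh controls read lowest on immobilized 2, at 44279 and 42070. What this does to the readings of the brightest genes was not tested. The endothelial markers had 1 rise and 1 fall of 7, the Schwann and sustentacular markers 1 and 1 of 3, and those of leukocytes (6), fibroblasts (6) and red blood cells (2) had 0 calls in limma and 0 at an unadjusted p under 0.05. In bulk tissue, fewer cells of a type and less RNA per cell cannot be told apart. Fos, a gene switched on quickly by stimulation, read 12288 and 14407 in immobilized rats and 574 and 291 in unstressed rats, which follows the labels. Over all tested probe sets the correlation of log2 values was 0.981 between the immobilized arrays, 0.967 between the unstressed arrays and 0.856 to 0.871 across groups. Probe sets are not independent, so these values describe the arrays and carry no test.

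More helicase genes fell than rose after immobilization, and the few rises included the largest changes. The 47 tested genes comprised 4 that rose, 16 that fell and 27 without a call (limma, Benjamini-Hochberg adjusted p under 0.05 over all 18625 tested probe sets). Among all 10320 tested genes, 11.2% rose and 21.8% fell, 33.0% in all. The helicases had 8.51% rising and 34% falling, 42.6% in all, and no test was made of the difference from that background. The rises were Ddx46, Dhx38, Ddx21 and Ddx39a, of which the first 3 exceeded 2-fold. Falls of over 2-fold were those of Ddx51, Dhx58, Ddx10 and Ddx28. Readings of the groups did not overlap for 38 of the 47 genes, 80.9%, against 69.7% of all tested genes. Both immobilized readings lay above the unstressed ones for 9 (24.1% of all genes) and below them for 29 (45.6% of all genes).

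The median log2 change of the 47 genes was -0.25, against -0.14 over all tested genes, a gap of -0.12. The log2 change is the mean log2(intensity + 16) of immobilized minus unstressed arrays, so it understates the change of dim genes. Centring each array on its median moved the median of all tested genes to 0.00 and that of the helicases to -0.11. The helicases then had 4 rises and 11 falls, and all 10320 tested genes had 1508 rises and 1553 falls. Quantile normalization gave the helicases 4 rises and 14 falls with a median of -0.23. All 10318 genes tested in that setting had 1327 rises and 2092 falls. The Dhx genes counted 1 rise and 9 falls of 15 (median -0.55) and the Ddx genes 3 rises and 7 falls of 32 (median -0.16), a difference that was not tested. Both medians stayed below 0 under the 3 scalings, that of the Ddx genes at -0.02 after median centring.

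**Figure D1:**
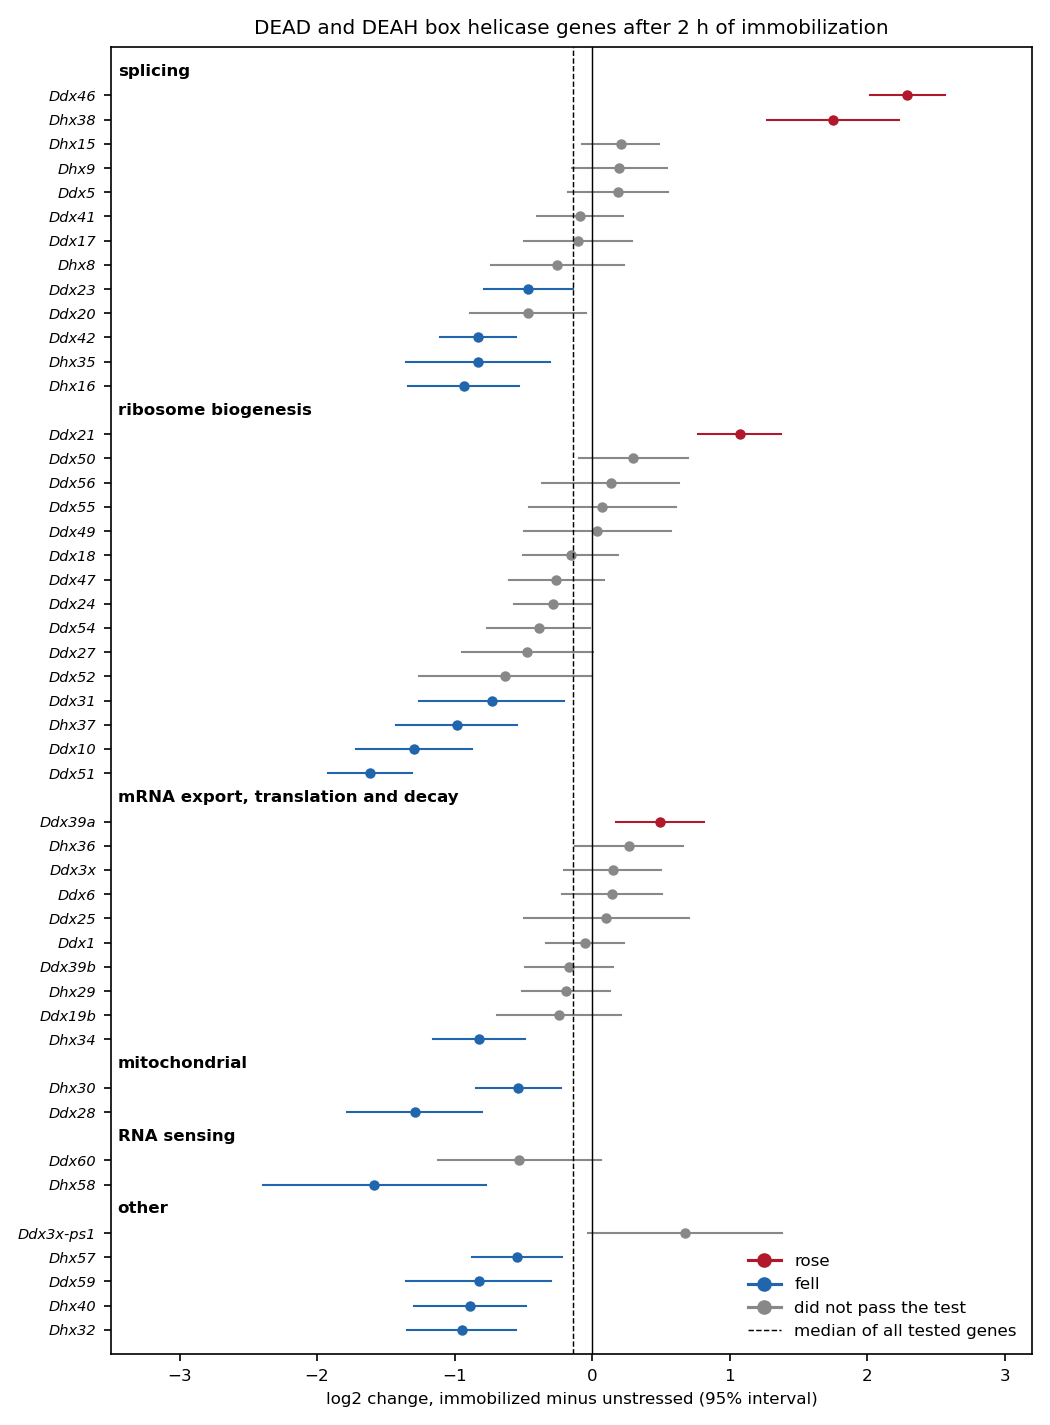
Log2 change of each of the 47 helicase genes, immobilized minus unstressed, with its 95% interval from limma on the horizontal axis, grouped by role. Red genes rose, blue genes fell, grey genes did not pass the test, and the dashed line at -0.14 is the median of all tested genes. Ddx46 and Dhx38 stand apart on the right at 2.29 and 1.75, and Ddx51 and Dhx58 lie farthest left at -1.61 and -1.58.

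The 250 bases before the gene's start were read for the 6 genes with a promoter in the RefSeq table (GRCr8) among the 7 largest called changes, since these genes carry the result. Dhx58 had no entry. Sequences run from 5′ to 3′ on the gene's strand, and capitals mark matches on either strand to CACGTG (the E-box bound by Myc and clock factors), TGACG (the core of the cAMP response element, whose full form is TGACGTCA), CCAAT (bound by NF-Y) and CCGGAAG (an ETS factor motif). The first 3 genes rose and the last 3 fell.
Ddx46, chr17:8993604-8993853, minus strand: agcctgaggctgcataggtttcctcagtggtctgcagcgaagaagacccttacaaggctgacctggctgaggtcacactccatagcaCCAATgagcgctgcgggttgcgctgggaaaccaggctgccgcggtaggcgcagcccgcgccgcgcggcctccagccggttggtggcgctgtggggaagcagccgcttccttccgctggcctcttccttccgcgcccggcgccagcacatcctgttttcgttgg
Dhx38, chr19:54439424-54439673, minus strand: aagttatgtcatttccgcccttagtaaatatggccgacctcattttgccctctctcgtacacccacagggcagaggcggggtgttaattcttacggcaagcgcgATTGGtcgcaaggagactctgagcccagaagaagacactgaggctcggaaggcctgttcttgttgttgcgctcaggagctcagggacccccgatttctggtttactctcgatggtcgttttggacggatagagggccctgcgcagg
Ddx21, chr20:31097239-31097488, minus strand: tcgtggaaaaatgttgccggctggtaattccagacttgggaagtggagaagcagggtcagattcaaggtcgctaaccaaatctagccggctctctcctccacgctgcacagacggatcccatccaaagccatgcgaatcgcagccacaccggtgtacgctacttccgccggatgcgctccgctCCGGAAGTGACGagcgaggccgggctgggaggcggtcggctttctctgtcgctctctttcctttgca
Ddx51, chr12:51675765-51676014, minus strand: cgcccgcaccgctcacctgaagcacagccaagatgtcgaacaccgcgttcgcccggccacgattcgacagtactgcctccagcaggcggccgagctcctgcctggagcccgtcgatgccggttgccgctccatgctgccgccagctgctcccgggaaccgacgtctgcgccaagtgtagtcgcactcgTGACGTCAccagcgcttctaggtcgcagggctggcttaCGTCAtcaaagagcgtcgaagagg
Ddx10, chr8:62539586-62539835, minus strand: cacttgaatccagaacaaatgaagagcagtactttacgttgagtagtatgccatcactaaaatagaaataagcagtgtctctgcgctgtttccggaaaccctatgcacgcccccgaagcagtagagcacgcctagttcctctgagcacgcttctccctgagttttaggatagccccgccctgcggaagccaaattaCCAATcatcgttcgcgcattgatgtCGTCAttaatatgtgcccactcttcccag
Ddx28, chr19:50821574-50821823, minus strand: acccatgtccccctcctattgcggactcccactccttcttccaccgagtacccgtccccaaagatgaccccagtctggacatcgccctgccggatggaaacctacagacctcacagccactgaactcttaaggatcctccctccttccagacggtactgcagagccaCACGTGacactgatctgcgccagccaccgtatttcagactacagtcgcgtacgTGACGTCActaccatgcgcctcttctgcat

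Ddx46 and Dhx38 each held 1 CCAAT match, at positions -163 and -146 from the gene's start, and so did Ddx10, which fell, at -54. By call, CCAAT stood in 2 of the 4 promoters of genes that rose, 6 of 15 that fell and 12 of 23 without a call. Ddx21 held the ETS motif at -67, with the cAMP response element core directly after it at -60. A full TGACGTCA stood in the promoters of Ddx51, at -62, and Ddx28, at -30, both of which fell. Every full TGACGTCA also counts as TGACG. Of the 42 helicase genes with a promoter in the table, 4 held TGACGTCA (9.52%), against 1.89% of the 21851 promoters of protein-coding genes, and these were Ddx28, Ddx49, Ddx51 and Dhx36. By call, TGACGTCA stood in 0 of the 4 promoters of genes that rose, 2 of 15 that fell and 2 of 23 without a call (Ddx49 and Dhx36). CCGGAAG stood in 16 of 42 (38.1%, against 9.01%), CACGTG in 5 (11.9%, against 6.16%), CCAAT in 20 (47.6%, against 35%) and TGACG in 16 (38.1%, against 20.4%). TGANTCA, the AP-1 motif, stood in 1 (2.38%, against 5.69%), and GGGCGG, the GC box, in 22 (52.4%, against 38.9%). The median GC content was 56.4% for the helicase promoters and 54% for those of all protein-coding genes. A match is a run of letters and not a measured binding site.

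Among the helicases of splicing, 2 rose (15.4%), 4 fell (30.8%) and 7 had no call, against 11.2% rising and 21.8% falling over all tested genes. Their median of -0.10 became 0.04 after median centring. Ddx46 and Dhx38, which act at different steps of the same reaction, had the largest rises of all 47 genes. Ddx46, the counterpart of yeast Prp5, helps the spliceosome settle on the branch site of the intron. It read 30823 and 30707 in immobilized rats, against 6288 and 6229 in unstressed rats. The 2 arrays of each group nearly coincided and the groups lay far apart. The log2 change was 2.29 ± 0.11 (SE, n = 2 per group), 4.91-fold, with a limma adjusted p of 8.07e-05, which ranked 142 among 10320 tested genes ordered from the largest rise. Dhx38, the counterpart of yeast Prp16, remodels the spliceosome between its catalytic steps. It read 7443 and 11123 in immobilized rats, against 2780 and 2603 in unstressed rats. The immobilized readings spread more than those of Ddx46 but both lay above either unstressed reading. The log2 change was 1.75 ± 0.20, 3.37-fold (limma adjusted p = 0.00157). Each of these genes has only 1 probe set on the array, so no other probe set could be set beside it.

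The splicing helicases that fell were Dhx16, Dhx35, Ddx42 and Ddx23. Ddx42, which binds the same splicing subcomplex as Ddx46, read 5467 and 5547 in immobilized rats, against 9704 and 9848 in unstressed rats. Its log2 change of -0.83 ± 0.12 (limma adjusted p = 0.0032) ran opposite to that of Ddx46. A dimmer Ddx42 probe set had -0.44 and did not pass. Dhx16, the counterpart of yeast Prp2, which activates the assembled spliceosome, read 1755 and 1720 in immobilized rats, against 3061 and 3632 in unstressed rats, a log2 change of -0.93 ± 0.17 (limma adjusted p = 0.00799). Dhx35, found in catalytic spliceosomes, read 816 and 661 in immobilized rats, against 1314 and 1317 in unstressed rats (-0.83 ± 0.22, limma adjusted p = 0.0304). Ddx23, the counterpart of yeast Prp28, had a log2 change of -0.46 ± 0.14 (limma adjusted p = 0.0407). The calls on Dhx16, Dhx35 and Ddx23 were lost without immobilized 1 (limma adjusted p of 0.0675, 0.0862 and 0.128) and without immobilized 2 (0.0771, 0.177 and 0.224). Those of Dhx35 and Ddx23 were also lost without unstressed 2 (0.0509 and 0.102) and after median centring (0.0504 and 0.151), and that of Ddx23 without the intensity trend (0.0871) and with no filter (0.0657).

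The other 7 splicing helicases, bright and dim, did not pass the test. Ddx5, a regulator of transcription and alternative splicing, read 44643 and 36824 in immobilized rats, against 34305 and 36754 in unstressed rats. The lower immobilized reading came from immobilized 2, the array with the lowest top reading, and lay barely above the higher unstressed one. The change did not pass (log2 change 0.19, 95% interval -0.17 to 0.56, limma adjusted p = 0.382). A dimmer Ddx5 probe set had 0.01, with overlapping groups (limma adjusted p = 0.974). Ddx17, the paralog of Ddx5, had -0.10, a value whose sign turned to 0.04 after median centring. Dhx15, the counterpart of yeast Prp43, which takes spent spliceosomes apart, read 19408 and 18457 in immobilized rats, against 16186 and 16567 in unstressed rats (0.21, interval -0.07 to 0.49, limma adjusted p = 0.224). Dhx9, an abundant nuclear helicase of transcription and double-stranded RNA, had 0.20, and Dhx8, which releases finished mRNA, had -0.25. Ddx41 had -0.09, which also changed sign with median centring, and Ddx20, a subunit of the SMN complex that assembles splicing particles, had -0.47 (limma adjusted p = 0.0903). None of these passed.

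The nucleolar helicases of ribosome biogenesis counted 1 rise (6.67%), 4 falls (26.7%) and 10 that did not pass, with a median of -0.28. These shares were near those of all tested genes, 11.2% rising and 21.8% falling. Ddx21, which couples transcription and processing of ribosomal RNA, read 10196 and 11643 in immobilized rats, against 5172 and 5152 in unstressed rats. The groups were well apart, with a log2 change of 1.08 ± 0.13, 2.11-fold (limma adjusted p = 0.0017). A dimmer Ddx21 probe set had 0.68 and did not pass. Ddx50, its nucleolar paralog, read 6015 and 7346 in immobilized rats, against 4805 and 6048 in unstressed rats. Those readings overlapped, and the log2 change of 0.30 ± 0.17 did not pass (limma adjusted p = 0.217).

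Ddx51, a factor for the end of the large ribosomal RNA, had the largest fall of the 47 genes. It read 2687 and 2666 in immobilized rats, against 8582 and 7888 in unstressed rats. That is a log2 change of -1.61 ± 0.13, 3.06-fold lower (limma adjusted p = 0.000419), and it ranked 153 among the tested genes ordered from the largest fall. Ddx10, a factor of the small ribosomal subunit, read 1092 and 1166 in immobilized rats, against 2783 and 2806 in unstressed rats (-1.30 ± 0.18, limma adjusted p = 0.00291). Dhx37, which acts on the precursor of the same subunit, read 1299 and 1583 in immobilized rats, against 2816 and 2894 in unstressed rats (-0.99 ± 0.18, limma adjusted p = 0.00879). In all 3 genes both immobilized readings lay below the unstressed ones by more than the spread within either group. Ddx31 had -0.73 ± 0.22 (limma adjusted p = 0.0461). The call on Dhx37 was lost without immobilized 1 (0.0767). The call on Ddx31 was lost with any 1 array left out (0.0572 to 0.235), after either other scaling (0.0786 and 0.0803) and with no filter (0.0635).

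The other 9 nucleolar members did not pass, with log2 changes from -0.63 for Ddx52 to 0.14 for Ddx56. Ddx24 was the brightest of them and read 8315 and 8970 in immobilized rats, against 10242 and 10803 in unstressed rats (-0.28, limma adjusted p = 0.116). Ddx27, Ddx54, Ddx47 and Ddx18 had -0.47, -0.39, -0.26 and -0.15, and Ddx55 and Ddx49 had 0.08 and 0.04. The groups did not overlap for Ddx52, Ddx27, Ddx54, Ddx24, Ddx47, Ddx18 and Ddx56, none of which was called. Over all nucleolar members, called or not, the groups did not overlap for 12 of 15 (80%), against 69.7% of all tested genes.

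**Figure D2:**
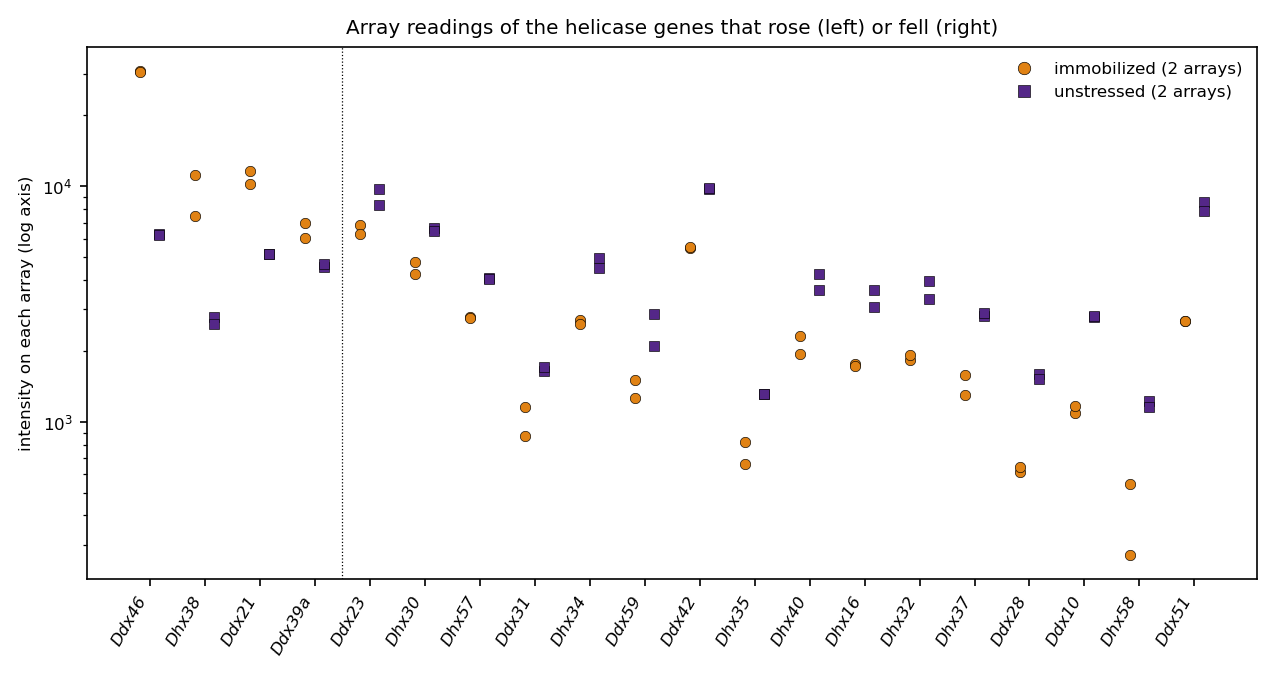
Intensity on each array, on a log axis, of the 20 helicase genes that passed the test, ordered by log2 change, with the 4 that rose left of the dotted line. Orange circles are the 2 immobilized arrays and purple squares the 2 unstressed arrays. Circles lie above squares for the genes on the left and below them for those on the right, and the pair of circles of Dhx58 is the widest apart.

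The helicases of mRNA export, translation and decay counted 1 rise, 1 fall and 8 of 10 not passing, against 11.2% rising and 21.8% falling over all tested genes. Their median of 0.03 became -0.03 after quantile normalization. Ddx39a, one of a pair of export helicases, read 6022 and 6999 in immobilized rats, against 4523 and 4683 in unstressed rats. The groups were apart, with a log2 change of 0.49 ± 0.14, 1.41-fold (limma adjusted p = 0.0327). Its near-identical paralog Ddx39b read 21703 and 20018 in immobilized rats, against 25019 and 21904 in unstressed rats, and had -0.17 with an interval of -0.49 to 0.15 (limma adjusted p = 0.382). Probes of such close paralogs may share signal, so the difference between them is uncertain, and it was not tested. The call on Ddx39a was lost without immobilized 1 (0.0962), without immobilized 2 (0.234), without the intensity trend (0.0679) and with no filter (0.0515).

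Dhx34, a factor of nonsense-mediated decay, was the only member of this role to fall. It read 2704 and 2607 in immobilized rats, against 4484 and 4940 in unstressed rats, a log2 change of -0.82 ± 0.14 (limma adjusted p = 0.00657), which was lost without immobilized 1 (0.062) or immobilized 2 (0.0762). Ddx3x, which helps ribosomes scan structured leaders, read 42423 and 35452 in immobilized rats, against 34375 and 35508 in unstressed rats, with overlapping groups (0.15, limma adjusted p = 0.48). Ddx6, a helicase of P bodies that holds mRNAs back from translation, read 14771 and 15495 in immobilized rats, against 15518 and 12034 in unstressed rats, also overlapping (0.15, limma adjusted p = 0.504). Dhx36, which unwinds G-quadruplexes, had 0.27, and Ddx25, known as a testis export helicase, had 0.10. Dhx29, a scanning factor, had -0.19 and the export helicase Ddx19b had -0.24. Ddx1, a subunit of the tRNA ligase complex, had -0.05, which turned to 0.09 with median centring.

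Both mitochondrial members fell, as did 21.8% of all tested genes. Ddx28, which assembles the large mitochondrial ribosomal subunit, read 614 and 642 in immobilized rats, against 1591 and 1523 in unstressed rats (-1.29 ± 0.21, 2.44-fold lower, limma adjusted p = 0.00513). Dhx30, another mitochondrial ribosome assembly factor, read 4780 and 4243 in immobilized rats, against 6659 and 6431 in unstressed rats (-0.54 ± 0.13, limma adjusted p = 0.022). Neither gene's groups overlapped, as was so for 69.7% of all tested genes. Both calls were lost without immobilized 1 (0.0506 for Ddx28 and 0.0873 for Dhx30) and without immobilized 2 (0.051 and 0.169), and that of Dhx30 also after median centring (0.0702) and without the trend (0.0505).

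Of the helicases of RNA sensing, Dhx58, known as LGP2, a regulator of the cytoplasmic sensors of viral RNA, fell. It read 272 and 546 in immobilized rats, against 1228 and 1153 in unstressed rats. The lower immobilized reading lay just above the highest of the 27 Bacillus control probe sets, 257, and the second probe set's, 214, lay within their range. The log2 change was -1.58 ± 0.34 (limma adjusted p = 0.0143), with a second probe set at -1.38 that also passed. The call was lost without immobilized 1 (-1.10, limma adjusted p = 0.074). Ddx60, an interferon-inducible member, had -0.53 ± 0.25 and did not pass. Its groups did not overlap, as was so for 69.7% of all tested genes.

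The remaining members have less settled roles, and 4 of 5 fell, against 21.8% of all tested genes. The difference was not tested. Dhx32 read 1831 and 1916 in immobilized rats, against 3328 and 3960 in unstressed rats (-0.95 ± 0.17, limma adjusted p = 0.00708). Dhx40 read 1946 and 2309 in immobilized rats, against 3638 and 4257 in unstressed rats (-0.89 ± 0.17, limma adjusted p = 0.0099). Ddx59, linked in humans to a developmental disorder of cilia, read 1499 and 1264 in immobilized rats, against 2868 and 2094 in unstressed rats (-0.82 ± 0.22, limma adjusted p = 0.0313). Dhx57 had -0.55 ± 0.14 (limma adjusted p = 0.0254), with nearly equal arrays within each group. These 4 calls were lost without immobilized 1 (0.0695 to 0.14) and without immobilized 2 (0.0603 to 0.186), that of Ddx59 also without unstressed 1 (0.0768), and that of Dhx57 after median centring (0.0866) and quantile normalization (0.0599). The pseudogene Ddx3x-ps1, which the symbol rule also takes in, read 9818 and 9665 in immobilized rats, against 4290 and 8641 in unstressed rats. Its unstressed readings were wide apart, its log2 change of 0.68 ± 0.30 did not pass, and its probes may read Ddx3x itself.

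Of the 47 genes 30 had 1 probe set and 17 had several, which allowed a check within the array. Over all tested probe sets 11.7% rose and 19.4% fell, 31.1% in all. Of these 17, 15 had more than 1 tested probe set. In 13 of the 15 all tested probe sets lay on the same side of 0, the exceptions being Ddx17 (-0.10 and 0.09) and Dhx36. Dhx36 had 5 probe sets from -0.41 to 0.54, none of which passed. Ddx3x was the only gene whose call differed upward: its dimmer probe set read 4199 and 5092 in immobilized rats, against 1780 and 3217 in unstressed rats, and rose by 0.95 (limma adjusted p = 0.0417), where the brightest did not pass. Ddx6 had 0.15, 0.26 and 0.73 across 3 probe sets. Averaging the probe sets of each gene gave 5 rises, Ddx3x being added at 0.55, and 14 falls. Ddx19b, Ddx28, Ddx52, Ddx55 and Dhx58 were then below the level for testing. No count over all genes was set beside these. Another 3 probe sets name both Ddx19b and Ddx19a, were not members, and had log2 changes of -0.26, -0.21 and 0.12, none passing.

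**Figure D3:**
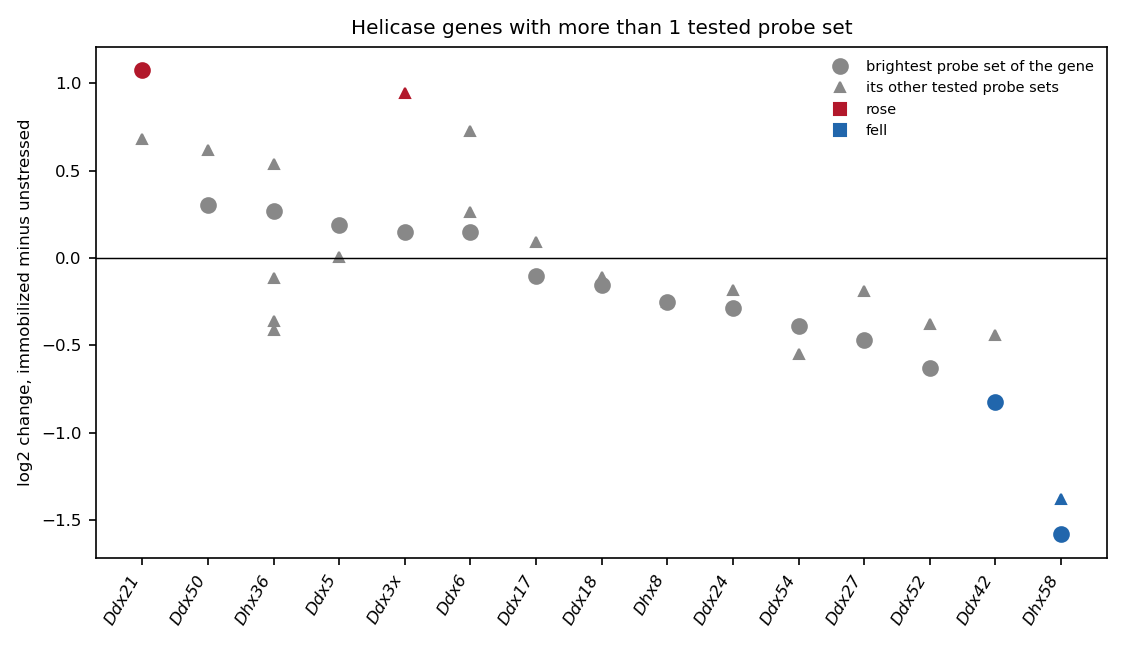
Log2 change, immobilized minus unstressed, of every tested probe set of the 15 helicase genes with more than 1. Large circles are the brightest probe set, which stands for the gene, triangles the others, and colour shows which rose (red) or fell (blue). The probe sets of Dhx36 fall on both sides of 0, from -0.41 to 0.54, and those of Dhx58 lie together near -1.5.

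Genes that work beside the helicases were counted in 9 lists, 1 probe set per gene, against the same background of 11.2% rising and 21.8% falling. At an unadjusted p under 0.05 in limma, 1556 of all 10320 tested genes lay higher and 3070 lower. After median centring, 1508 of the 10320 rose and 1553 fell by adjusted p. Helicases of the same fold with other names counted 1 rise and 6 falls of 14 (median -0.49). Eif4a1, the helicase of the cap-binding complex, rose by 0.87 ± 0.20 to readings of 32782 and 27722 in immobilized rats, against 13733 and 19712 in unstressed rats (limma adjusted p = 0.0169). Its paralog Eif4a2 had -0.05. Mtrex, which feeds nuclear RNA to the exosome, had -0.88 and Skic2, which does so in the cytoplasm, had -0.73, both falls. These 3 calls and that of Helz (-0.80) were lost without immobilized 1 (limma adjusted p of 0.0641 to 0.109) and without immobilized 2 (0.0521 to 0.104). The list then had 0 rises and 0 falls in limma either way, and at an unadjusted p under 0.05 with all arrays it had 1 rise and 8 falls.

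In the spliceosome list 3 genes rose and 5 fell of 34 (median -0.15). Prpf19, a scaffold and ubiquitin ligase of the spliceosome, fell by 1.48 on the log2 scale (limma adjusted p = 0.00107) and Prpf4 by 1.01, while Snrpd1, a core ring protein, rose by 1.29. Crnkl1, a scaffold protein, fell by 0.85, a call lost without immobilized 1 (limma adjusted p = 0.104) and without immobilized 2 (0.152). The calls on Prpf4 and Snrpd1 were lost without immobilized 2 (limma adjusted p of 0.0515 and 0.0651). The counts were 2 and 2 without immobilized 1, 0 and 1 without immobilized 2, 4 and 8 without unstressed 1, and 7 and 3 after median centring. Of 23 SR proteins and hnRNPs, which choose splice sites, 5 rose and 0 fell (median 0.18). At an unadjusted p under 0.05 in limma 8 lay higher and 0 lower, against 1556 and 3070 of all 10320 tested genes. Tra2a rose by 1.02 ± 0.12 (limma adjusted p = 0.0017), and Srsf10, Tra2b and Ptbp1 by 0.57, 0.55 and 0.55. These last 3 calls were lost without either immobilized array (0.0639 to 0.275), which left 1 rise, and without unstressed 1 the list had 3 rises. Tra2b also lost its call without unstressed 1 (0.067), and Srsf10 without unstressed 2 (0.0551), without the trend (0.0589) and with no filter (0.0587).

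In the ribosome biogenesis list 12 rose and 7 fell of 51 (median 0.07), in which the helicases themselves were not counted. Bop1 and Gnl3, nucleolar proteins of the large subunit, rose by 1.22 ± 0.14 and 1.07 ± 0.12 (limma adjusted p of 0.00149 and 0.00133), Heatr1 by 0.98 and Nolc1 by 0.95. Heatr1 lost its call without immobilized 1 (0.0757) or immobilized 2 (0.108), and Nolc1 without immobilized 2 (0.0667). Without immobilized 1 the counts were 4 and 0, without immobilized 2 they were 2 and 0, without unstressed 1 they were 7 and 6, and without unstressed 2 they were 11 and 4. The list of eIF4F and the scanning complex, which load ribosomes on mRNA, had 4 rises and 3 falls of 24 (median 0.22), or 1 and 1 without either immobilized array. Eif4e, the cap-binding protein, rose by 0.85 (limma adjusted p = 0.00299), and its inhibitor gene Eif4ebp1 fell by 1.06 (0.00279). Eif4ebp2 had -0.63 and Pdcd4, an inhibitor of the Eif4a helicases, had -0.61, both falls that were lost without immobilized 1 (0.137 and 0.166), without immobilized 2 (0.075 and 0.0688) and after median centring (0.0675 and 0.0743), and for Eif4ebp2 without the trend (0.0506).

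The exosome and nonsense-mediated decay list, where Mtrex, Skic2 and Dhx34 act, had 1 rise and 8 falls of 17 (median -0.54). Exosc4, Exosc8, Exosc9 and Exosc7, subunits of the exosome that degrades RNA from its end, had log2 changes of -1.08, -0.94, -0.85 and -0.83. All 4 calls were lost without immobilized 2 (limma adjusted p of 0.0516, 0.0662, 0.0885 and 0.131), and those of Exosc9 and Exosc7 without immobilized 1 (0.0988 and 0.0712). The list had 0 rises and 2 falls without immobilized 1 and 0 of each in limma without immobilized 2. At an unadjusted p under 0.05 with all arrays, 1 gene lay higher and 11 lower, against 1556 and 3070 of all 10320 tested genes. Of 28 genes of mRNA decay and P bodies, 5 rose and 10 fell (median -0.06). Zfp36, which marks AU-rich mRNAs for decay, rose by 1.79 (limma adjusted p = 0.000305), while Dcp1b, Pan2 and Xrn1, enzymes or cofactors of decapping, deadenylation and degradation, had -1.39, -1.23 and -1.16, all falls. Counts were 1 and 5 without immobilized 1, 2 and 4 without immobilized 2, and 2 and 10 without unstressed 1.

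In the mRNA export and exon junction list 3 rose and 5 fell of 20 (median -0.17). Gle1, Nup214 and Nup42, the nuclear pore partners that activate or anchor the export helicase Ddx19b, had falls of -0.93, -0.91 and -1.31, beside the -0.24 of Ddx19b itself, and Thoc3 had -1.17 (limma adjusted p of 0.00282 to 0.0104 for these 4). Gle1 lost its call without immobilized 1 (0.0556), and Nup214 without immobilized 1 (0.0869) or immobilized 2 (0.0661). The list had 1 rise and 2 falls without immobilized 1, 0 and 3 without immobilized 2, and 6 and 5 after median centring. In the RNA sensing and interferon list 3 rose and 6 fell of 18 (median -0.43), with members in both directions. Ifit3 rose by 2.36 and Oasl by 1.62, while Mavs, the adaptor of the sensors that Dhx58 regulates, had -1.43 and Rsad2 had -1.26, both falls. Rsad2 lost its call without immobilized 1 (0.054) or immobilized 2 (0.0662), and the list had 2 and 2 with either left out.

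**Figure D4:**
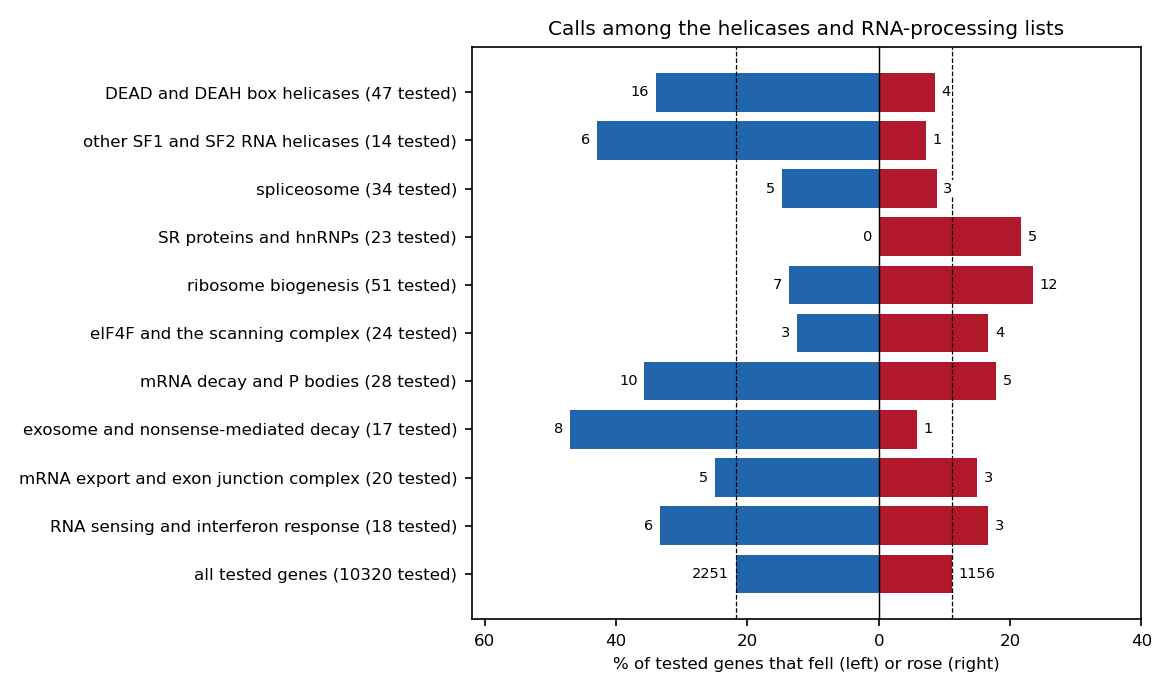
Percent of tested genes that fell (blue, left) or rose (red, right) among the helicases, the 9 lists of genes that work beside them and all tested genes, with the number of genes at each bar end. Dashed lines mark the 21.8% and 11.2% of all tested genes. The bars for falls reach past the dashed line for the helicases (34%) and for 5 lists, the exosome (47.1%), the helicases with other names (42.9%), mRNA decay (35.7%), RNA sensing (33.3%) and mRNA export (25%), and SR proteins and hnRNPs have no blue bar.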

How the data were processed

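Each of 4 arrays has a deposited column of linear intensities over 31099 rows. The authors' steps behind these intensities are not given in the sources used here. The deposited columns share 1 trimmed mean, 2501 (2% off each end, spread 0.00572%), so that scaling was kept. The groups come from the sample descriptions, and replicate numbers follow accession order and pair no samples. There were 0 unused columns.

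Leaving out 57 control probe sets, values became log2(intensity + 16), and 12417 probe sets whose mean lay below the 40th percentile (intensity near 543.8) were left untested. Names come from GEO's platform annotation (20826 probe sets with 1 symbol, 436 with several and 9780 with none), and 20758 of those with 1 symbol were found in the RefSeq table. Tests used limma 3.58.1 under R 4.3.3 (eBayes with an intensity trend, 6.81 degrees of freedom in all, two-sided, Benjamini-Hochberg over 18625 probe sets) and the script was tested on simulated data. An exact permutation test of 2 against 2 arrays cannot give a p below 0.33, so none is reported. The number of arrays limits the precision.

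The members, the roles, the 9 lists and the 7 lists of cell type markers were chosen with earlier results of these data known. Every member is named: array readings are given for the 14 largest called changes and the 6 brightest members without a call, and for some others chosen after their values were seen. Up to 4 called genes of each list are named. Eif4a2 was named after its value was seen. The planned comparison of protein sequences was not made, as no protein table was used here. Alternatives were quantile normalization, median centring, offsets of 1 and 64, no filter or the 60th percentile, eBayes without the trend or robust, a threshold of 0.10, averaging each gene's probe sets and leaving out each array, where the lone array of a group was assumed to vary like the pair of the other group. Leaving out the pseudogene was added after seeing the data. Plots were drawn with matplotlib 3.10.9.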

Additional observations from a re-analysis of the deposited data

How the results depend on the processing

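No paired analysis was possible because the labels carry no shared replicate numbers. Of the 20 called helicase genes, 6 kept their call under every one of the 12 settings in which all genes were refitted: Ddx46, Dhx38, Ddx21, Ddx10, Ddx42 and Ddx51. No named gene changed direction with a call. The helicases had 3 to 5 rises and 3 to 15 falls with 1 array left out (medians -0.32 to -0.22), the fewest falls without an immobilized array (3 without immobilized 1 and 5 without immobilized 2). Of the 20 calls, 6 and 8 were kept without immobilized 1 and 2, and 18 and 17 without unstressed 1 and 2, and the cause was not tested. Other settings gave 3 to 5 rises and 11 to 17 falls, and leaving out the pseudogene changed neither count. The helicase median moved to -0.11 after median centring. With 1 array left out, the count of all tested probe sets rising was 785 to 2638 and that of all tested probe sets falling was 893 to 3800.

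Lists changed as follows. After median centring there was 1 fall in the eIF4F list, 6 rises in the export list, 3 falls among the other helicases, 4 falls in ribosome biogenesis, 3 falls and 7 rises in the spliceosome and 8 rises among SR proteins and hnRNPs. All 10320 tested genes moved the same way, from 1156 rises and 2251 falls in the main fit to 1508 and 1553. Whether the lists moved more than that was not tested. Without the trend there were 2 rises in the eIF4F list, 2 rises in mRNA decay, 7 rises in ribosome biogenesis, 3 falls in the spliceosome and 3 rises among SR proteins. With no filter there were 2 rises in mRNA decay and 7 in ribosome biogenesis. With 1 array left out, rises and falls ranged as follows: eIF4F and the scanning complex, 1 to 4 rises and 1 to 3 falls, exosome and nonsense-mediated decay, 0 to 1 rises and 0 to 9 falls, mRNA decay and P bodies, 1 to 4 rises and 4 to 10 falls, mRNA export and exon junction complex, 0 to 4 rises and 2 to 5 falls, other SF1 and SF2 RNA helicases, 0 to 1 rises and 0 to 6 falls, ribosome biogenesis, 2 to 11 rises and 0 to 6 falls, RNA sensing and interferon response, 2 to 3 rises and 2 to 7 falls, spliceosome, 0 to 4 rises and 1 to 8 falls, SR proteins and hnRNPs, 1 to 4 rises and 0 falls throughout. Low intensities near the Bacillus controls limit Dhx58 and the second probe set of Ddx28.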
